A study of Mus musculus with 12 samples.

Results

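Glycolysis, gluconeogenesis and the tricarboxylic acid (TCA) cycle were followed in whole mouse kidneys at postnatal day 3 through 36 enzyme and transporter genes. The members were the gene symbols of a fixed list that matched a symbol in the count files, and all 36 were found among the 24062 symbols counted. Of these, 20 belong to glycolysis and lactate handling, 5 to gluconeogenesis and 11 to the TCA cycle. RNA of 12 whole kidneys was sequenced, with 3 kidneys from 2 litters in each of 4 groups. LIN28B Wt1 kidneys carried a doxycycline-inducible human LIN28B transgene that Wt1-Cre switched on, and doxycycline was given as a short pulse late in gestation. Wt1-Cre is active in the kidney mesenchyme that makes nephrons and part of the stroma, and in podocytes. Tubule cells that descend from this mesenchyme can therefore carry the recombined allele. The paper also places Wt1 in the intermediate mesoderm, and recombination in the ureteric bud was not measured here. Littermates of the LIN28B Wt1 mice, labelled wild type (WT) and called control here, were C57BL/6 as well. The let-7 KO kidneys lacked let-7a1, let-7d and let-7f1 in every cell, and their WT littermates are called let-7 WT, both of a mixed CD1 and C57BL/6 strain. The 2 control groups therefore differed in strain and litters as well as in library numbers. The paper gave doxycycline in drinking water to induce the transgene and describes none for let-7 mice. Control littermates may thus have been exposed before birth, which is not stated. These differences between the control groups cannot be told apart.

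Glycolysis breaks glucose down to pyruvate in the cytosol, and lactate dehydrogenase turns pyruvate to lactate when it is not oxidised. Gluconeogenesis runs the path in reverse with its own enzymes at the irreversible steps, and the kidney shares this ability with the liver because the proximal tubule holds phosphoenolpyruvate carboxykinase, fructose bisphosphatase and glucose-6-phosphatase. The TCA cycle burns acetyl groups in mitochondria and feeds the respiration on which proximal tubule transport depends, whereas progenitor cells of the developing kidney are known to lean more on glycolysis. LIN28B blocks the maturation of let-7 microRNAs, which repress messenger RNAs through short sites in their 3′ UTR.

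The 3 let-7 microRNAs deleted in the let-7 KO share 1 seed, which is why their mature 5p arms are shown here, with bases 2 to 8 in capitals (RefSeq, GRCm38.p6, minus strand). The genes lie close together on chromosome 13.
mmu-let-7a-5p, chr13:48538239-48538260: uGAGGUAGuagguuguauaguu
mmu-let-7d-5p, chr13:48536078-48536099: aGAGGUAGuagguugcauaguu
mmu-let-7f-5p, chr13:48537889-48537910: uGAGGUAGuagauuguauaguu

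Matches to this seed were looked up in the members. The letters CTACCTC or TACCTCA, which pair with bases 2 to 8, or with bases 2 to 7 with an A opposite base 1, were searched in each gene's longest 3′ UTR in the annotation. They occurred in 5 of the 36 members: in 2 of 20 glycolytic genes, 2 of 5 gluconeogenic genes and 1 of 11 TCA cycle genes. Of all 15485 tested genes with a 3′ UTR, 2476 held such a match, and nothing is read from the members' share. The matched stretches, in capitals on the strand of each gene (GRCm38), are given to show which members carry one.
Hk2, first site, chr6:82726737-82726761: ctgtggcttTACCTCAcacggctga
Hk2, second site, chr6:82726445-82726469: ctctagaaaTACCTCAttcacccgc
Aldoc, chr11:78326791-78326815: taccaaagtCTACCTCcatgtgtgc
Pck2, chr14:55549416-55549440: ctcctctccCTACCTCtgacaatcg
Pcx, chr19:4621587-4621611: ttagggcttCTACCTCtgggggtag
Idh2, chr7:80094923-80094947: cgtgtgcttTACCTCAgacagtcag

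Between 39926235 and 61872736 reads were counted per kidney. A count of 3 corresponded to 0.0485 to 0.0751 CPM (counts per 1000000 reads counted), so every member was measured well above that floor in every kidney. Levels below are CPM scaled by the trimmed mean of M values (TMM), and differences are log2 fold changes with their standard error (SE) from edgeR's quasi-likelihood test. A gene is said to pass the study's threshold at an unadjusted p below 0.01, and "rose" or "fell" is kept for genes with a Benjamini-Hochberg adjusted p below 0.05 over all genes tested. LIN28B Wt1 replicate 3, the single LIN28B Wt1 kidney of its litter, stood apart from the other 2 kidneys of its group, with a chi-square per gene of 227 to 237 against 60.5 between those 2. Other groups were uneven too, with 161 and 239 between let-7 KO replicate 1 and the other 2 against 92.6 between those, and 208 between let-7 WT replicates 2 and 3, while control kidneys gave 31.6 to 76.2. Relative to the mean of all kidneys, LIN28B Wt1 replicate 3 had higher counts for longer transcripts. Its slope was 0.101 log2 units per log2 unit of length, against -0.048 in both other LIN28B Wt1 kidneys and -0.0023 to 0.112 in control kidneys. Among let-7 KO kidneys the corresponding slopes were 0.0091, -0.116 and -0.146 in replicates 1, 2 and 3.

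Compared per kilobase of transcript in the 3 control kidneys, the most abundant member was Ldhb, the heart-type lactate dehydrogenase subunit, at 1014 ± 85.2 CPM per kb (SD, n = 3). The cytosolic malate dehydrogenase Mdh1 followed at 612 ± 47.9, Ldha at 542 ± 9.4 and Fbp1 at 540.3 ± 52.9, and Ldha and Fbp1 differed by less than their spread. The mitochondrial isocitrate dehydrogenase Idh2 stood at 448 ± 8.8 CPM per kb and the cytosolic Idh1 at 157 ± 2.4. Among gluconeogenic genes, Pck1 stood at 168 ± 77.5, the pyruvate carboxylase gene Pcx at 86.8 ± 12.1, G6pc at 59.8 ± 7.7 and Pck2 at 11.3 ± 0.95 CPM per kb. At the low end were Hk2 at 0.99 ± 0.22 and Eno1 at 0.76 ± 0.15, and the Eno1 value is uncertain because a near-identical copy is counted separately, as described for the enolases further on.

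In LIN28B Wt1 kidneys, 3 of the 5 gluconeogenic genes fell and no other member rose or fell. At the study's threshold 4 of 36 members passed, G6pc, Pck1 and Fbp1 lower and Pkm higher, against 7.33% of all 15793 genes tested (3.25% higher and 4.08% lower). At an adjusted p below 0.05, 3 of 36 passed against 1.23% of all genes. The median log2 fold change was -0.78 over the gluconeogenic genes, 0.23 over the glycolytic genes and -0.17 over the TCA cycle genes, beside -0.02 over all genes tested. DESeq2 on the same counts passed 8 of the 36, against 10.9% of all genes.

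G6pc (chr11:101367561-101377903, plus strand) encodes glucose-6-phosphatase, which releases free glucose in the last step. Its level was 132, 136 and 166 CPM in control kidneys and 24.0, 35.7 and 50.7 CPM in LIN28B Wt1 kidneys. The groups were far apart, and the highest LIN28B Wt1 kidney stayed well below the lowest control. G6pc fell by 1.97 on the log2 scale (SE 0.26, adjusted p = 0.00968), a 3.91-fold lower level.

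Pck1 (chr2:173153048-173159273, plus strand) encodes the cytosolic phosphoenolpyruvate carboxykinase, the committed step. It was measured at 273, 412 and 689 CPM in control kidneys and at 104, 167 and 150.0 CPM in LIN28B Wt1 kidneys. The control kidneys were widely spread, and still did not overlap with the LIN28B Wt1 kidneys. Pck1 fell by 1.70 (SE 0.31, adjusted p = 0.0365).

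Fbp1 (chr13:62864753-62888282, minus strand), the fructose bisphosphatase of kidney and liver, was at 746, 762 and 889 CPM in control kidneys and at 475, 511 and 411 CPM in LIN28B Wt1 kidneys. The groups did not overlap, and Fbp1 fell by 0.78 (SE 0.13, adjusted p = 0.0247). With litter as a block its adjusted p was 0.0626, while it still passed the study's threshold.

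The remaining gluconeogenic genes encode mitochondrial enzymes. Pcx, which makes oxaloacetate from pyruvate, stood at 320.1, 416 and 343 CPM in control kidneys and at 263, 290.5 and 189.9 CPM in LIN28B Wt1 kidneys. The groups did not overlap, but the difference of -0.54 (SE 0.17) missed the study's threshold (adjusted p = 0.149 in edgeR). It passed with litter as a block (adjusted p = 0.161), with a transcript-length covariate (adjusted p = 0.0219), without the filter on low counts and in DESeq2. Pck2, the mitochondrial carboxykinase, overlapped between the groups, at 47.4 to 56.2 against 38.8 to 58.9 CPM, with a log2 difference of -0.17 (SE 0.20).

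**Figure D1:**
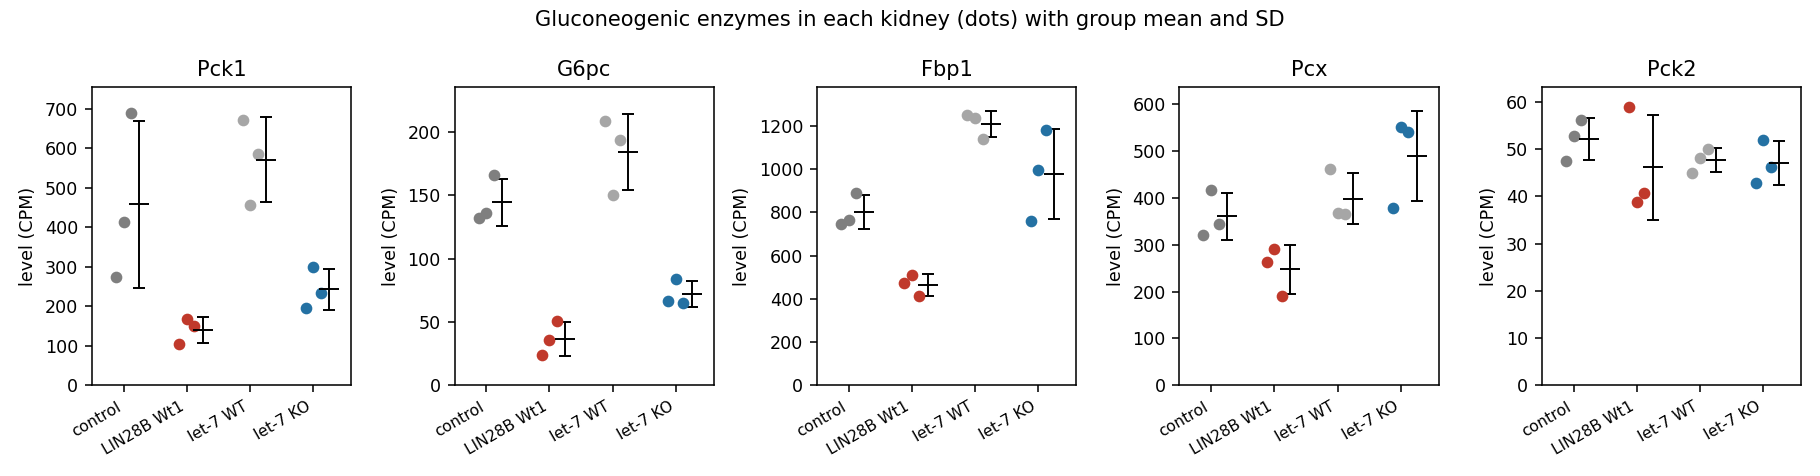
Level in CPM (vertical axis) of the 5 gluconeogenic genes in each kidney (dots) of the 4 groups, with the group mean and SD (bars, n = 3). G6pc and Pck1 are lower in both mutant groups than in their littermates, Fbp1 and Pcx do not overlap between LIN28B Wt1 and control kidneys, and Pck2 overlaps in all groups.

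The same kidneys differed in nephron segment markers. Of 16 proximal tubule markers, 10 were lower in LIN28B Wt1 kidneys at the study's threshold and none higher, with a median of -0.67. Their summed level was 1883 to 2314 CPM in LIN28B Wt1 and 3986 to 4080 CPM in control kidneys. Among 11 nephron progenitor markers tested, 8 were higher and 1 lower, and their sum was 539.5 to 697 CPM against 285 to 318 CPM. In bulk kidney RNA, fewer cells of a type and less RNA per cell cannot be told apart, and the part of tubule content in the lower gluconeogenic genes was not tested.

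How each gluconeogenic gene stood against the proximal tubule markers of its own kidney was computed as a log2 ratio of counts, an alternative added after seeing the data. The ratio of Fbp1 was -2.28, -2.18 and -2.20 in LIN28B Wt1 kidneys and -2.42, -2.39 and -2.20 in controls, so the groups overlapped. The ratio of G6pc was -6.58, -6.02 and -5.21 against -4.93, -4.88 and -4.62, with LIN28B Wt1 kidneys lower in every case by 1.13 on average. The ratio of Pck1 overlapped between the groups, at -4.47, -3.79 and -3.65 against -3.87, -3.27 and -2.57. The ratio of Pck2 was higher in every LIN28B Wt1 kidney, by 0.70 on average. An exact permutation test on 3 against 3 kidneys cannot give less than p = 0.1, which is the value for G6pc and Pck2. Non-overlap was not particular to gluconeogenic genes. The markers Slc34a1 and Lrp2 were each set against the sum of the other markers, without their own count. The ratio of Slc34a1 was lower in every mutant kidney of both models (mean differences of -0.40 and -0.35). That of Lrp2 was higher in every LIN28B Wt1 kidney (0.53).

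Other tissues were checked beside these genes. Liver albumin was at most 5.82 CPM in any kidney. The 8 liver markers together summed to 171 to 233 CPM in control and 98.8 to 247 CPM in LIN28B Wt1 kidneys. Ucp1, a marker of brown fat, was at 16.9, 13.9 and 2.28 CPM in control kidneys and at 1.95, 0 and 0.33 CPM in LIN28B Wt1 kidneys. Pck1 is also used by fat. Fat markers passed the threshold in 0 of 6 tested, yet all 6 were lower, 2 of them without overlap, with a median of -3.04 and sums of 239.5 to 412 CPM in LIN28B Wt1 against 424 to 563 CPM in control kidneys. Their part in the lower Pck1 level was not tested. Skeletal muscle myosins Myh1, Myh4 and Myh8 were at 0 in every kidney. The 8 muscle markers together summed to 5.95 to 9.96 CPM in control and 5.37 to 11.4 CPM in LIN28B Wt1 kidneys. The globins Hba-a1, Hba-a2, Hbb-bs and Hbb-bt were at 0 in every kidney too, so no absence of a tissue is read from a 0.

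The promoters of the 3 genes that fell are shown because these genes were lower together, from 250 bases before to 50 bases after the start (RefSeq, GRCm38.p6, strand of the gene). Capitals mark the HNF1 core GTTAAT, the cAMP response element core TGACGT and the TATA box TATAAA on either strand.
G6pc, chr11:101367466-101367765: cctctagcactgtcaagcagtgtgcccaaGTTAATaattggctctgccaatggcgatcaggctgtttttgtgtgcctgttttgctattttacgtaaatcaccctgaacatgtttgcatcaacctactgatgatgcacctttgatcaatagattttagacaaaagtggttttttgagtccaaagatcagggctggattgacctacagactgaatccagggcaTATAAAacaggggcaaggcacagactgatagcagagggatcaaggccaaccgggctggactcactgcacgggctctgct
Pck1, chr2:173152823-173153122: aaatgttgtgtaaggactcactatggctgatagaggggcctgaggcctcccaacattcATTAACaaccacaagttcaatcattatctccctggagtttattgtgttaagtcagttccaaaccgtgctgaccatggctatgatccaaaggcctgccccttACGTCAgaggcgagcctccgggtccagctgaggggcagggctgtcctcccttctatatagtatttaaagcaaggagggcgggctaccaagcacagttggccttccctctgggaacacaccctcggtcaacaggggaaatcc
Fbp1, chr13:62888233-62888532: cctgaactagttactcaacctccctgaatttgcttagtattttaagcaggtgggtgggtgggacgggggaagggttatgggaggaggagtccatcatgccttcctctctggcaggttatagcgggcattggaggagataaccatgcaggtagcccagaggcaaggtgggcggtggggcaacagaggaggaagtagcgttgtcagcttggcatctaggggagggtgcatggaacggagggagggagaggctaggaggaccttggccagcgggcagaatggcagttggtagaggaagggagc

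In the G6pc window the HNF1 core lay 221 bases and the TATA box 29 bases before the start. In the Pck1 window the reverse complement ATTAAC lay 192 bases and ACGTCA 91 bases before the start. None of these, nor the HNF4 core CAAAGTC nor the hypoxia response element core ACGTG, occurred in the Fbp1 window on either strand. The HNF1 core was present in 2 of the 6 promoters of gluconeogenic genes, in 0 of 33 promoters of glycolytic genes and in 0 of 16 of TCA cycle genes, beside 7.1% of all 32851 promoters. The hypoxia response element core was present in 13 of 33 glycolytic and 8 of 16 TCA cycle promoters, beside 19.6% of all. The 13 came from 11 genes and the 8 from 3 genes, 6 of them listed starts of Ogdh, which lie close together. The cAMP response element core was present in 1 of 6 gluconeogenic, 4 of 33 glycolytic and 6 of 16 TCA cycle promoters, the last from 4 genes, beside 7.51% of all. The TATA box was present in 1 of 6, 3 of 33 and 0 of 16, beside 13.6% of all. A promoter entry was found for 35 of the 36 members, some with several starts. Such matches are short letter strings and not measured binding.

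In let-7 KO kidneys G6pc and Pck1 again had the largest negative differences among the members. At the study's threshold 2 of 36 members passed, G6pc and Pck1, both lower, against 2.73% of all 15500 genes tested (1.63% lower). At an adjusted p below 0.05 no member passed in edgeR, against 0.0194% of all genes, with 6 of 36 at an unadjusted p below 0.05, against 10.8% of all genes. DESeq2 passed 4 of 36 at p below 0.01, against 5.44% of all genes. The median was -0.32 over the gluconeogenic genes, 0.17 over the glycolytic genes and -0.05 over the TCA cycle genes, beside -0.02 over all genes tested.

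G6pc was at 209, 150.4 and 193 CPM in let-7 WT kidneys and at 66.6, 84.1 and 65.2 CPM in let-7 KO kidneys. The groups did not overlap. The log2 difference was -1.37 (SE 0.19, adjusted p = 0.103), a 2.59-fold lower level. Pck1 was at 670.5, 457 and 585 CPM in let-7 WT and at 196, 299.6 and 233 CPM in let-7 KO kidneys, again without overlap. Its log2 difference was -1.25 (SE 0.21, adjusted p = 0.171).

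The other gluconeogenic genes overlapped between let-7 KO and let-7 WT kidneys. Fbp1 ranged from 761 to 1178 CPM in let-7 KO against 1137 to 1248 CPM (log2 difference -0.32, SE 0.18), and it passed the threshold with a transcript-length covariate (adjusted p = 0.525), where 3 of 36 members passed against 1.82% of all genes. Pcx was at 378, 549 and 539 CPM in let-7 KO against 460.4, 367 and 366 CPM in let-7 WT kidneys, a log2 difference of 0.28 (SE 0.19). Pck2 differed by -0.04 (SE 0.19).

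Of the proximal tubule markers 4 of 16 were lower in let-7 KO kidneys and none higher at the study's threshold, with a median of -0.30 and sums of 4324 to 5739 CPM in let-7 KO against 5547 to 6344 CPM in let-7 WT kidneys. The test of the difference between the models passed the threshold for 4 of 16, and for none after adjustment. Against these markers of the same kidney, the log2 ratio of G6pc was -6.02, -6.03 and -6.46 in let-7 KO and -4.93, -5.21 and -4.85 in let-7 WT kidneys, and that of Pck1 was -4.46, -4.19 and -4.62 against -3.24, -3.60 and -3.25. Both ratios were lower in every let-7 KO kidney, by 1.18 and 1.06 on average. The ratio of Pcx was higher in every let-7 KO kidney, by 0.46, and the ratio of Fbp1 overlapped. The exact permutation p was 0.1 for each of the non-overlapping ratios, the smallest this design allows.

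**Figure D2:**
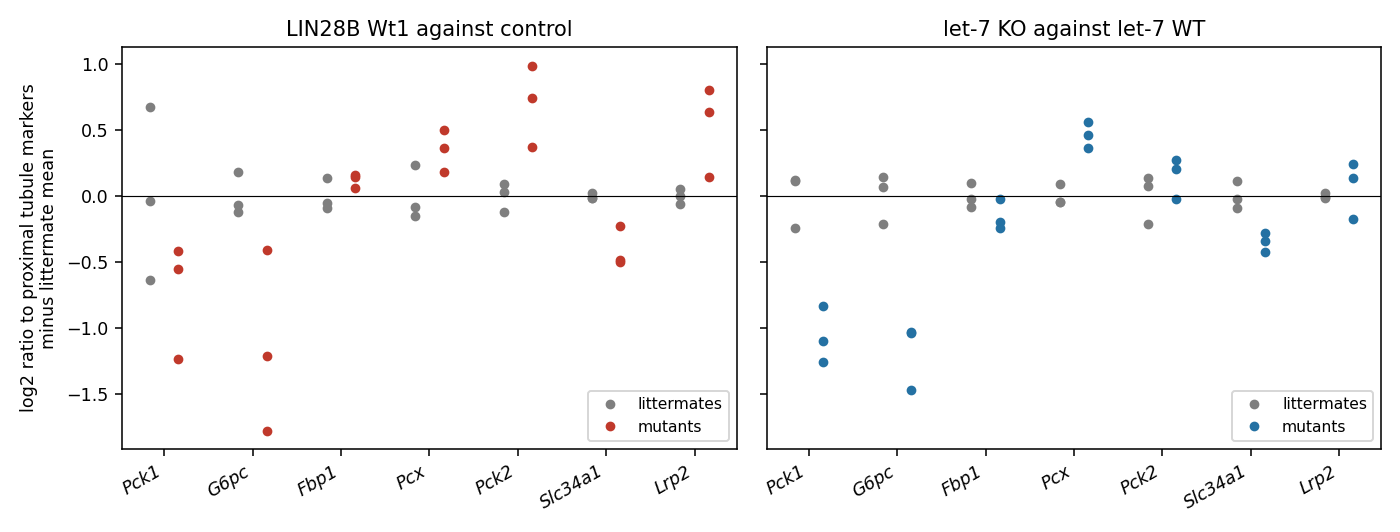
Log2 ratio of each gluconeogenic gene's count to the summed count of 16 proximal tubule markers in the same kidney, minus the littermate mean (vertical axis). The markers Slc34a1 and Lrp2 were each set against the sum of the other markers, and were picked after their values were seen. G6pc lies below the littermates in every mutant kidney of both models, and Fbp1 overlaps in both.

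Whether the models differed was tested in 1 fit of all 12 kidneys. Of the 36 members 1 passed the study's threshold, Pcx, against 1.55% of all 16598 genes, and none had an adjusted p below 0.05, against 0.00602% of all genes. The LIN28B Wt1 effect on Pcx was lower than the let-7 KO effect by 0.84 (SE 0.27, adjusted p = 0.595). The difference in effects was -0.62 (SE 0.33, adjusted p = 0.838) for G6pc, -0.48 (SE 0.40, adjusted p = 0.957) for Pck1 and -0.47 (SE 0.22, adjusted p = 0.797) for Fbp1, none past the threshold. Without LIN28B Wt1 replicate 3 the difference for G6pc was -0.92 and passed, and that for Pcx was -0.68 and did not. The LIN28B Wt1 kidneys left in that fit share a litter. Without let-7 KO replicate 1, 3 members passed, Pcx, Ldhb and Fbp1, against 2.71% of all genes.

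Genes that supply or release glucose around this pathway were read from a wider list of 15 measured genes. In LIN28B Wt1 kidneys 4 were lower and none higher at the study's threshold, which 7.33% of all genes passed. Gpd1, the cytosolic glycerol-3-phosphate dehydrogenase, was at 199, 199 and 149 CPM in control and at 90.2, 88.6 and 74.0 CPM in LIN28B Wt1 kidneys, and fell by 1.11 (SE 0.16, adjusted p = 0.0153). The glucose transporters Slc2a2 (GLUT2) and Slc5a2 (SGLT2) of the proximal tubule differed by -0.95 (SE 0.19, adjusted p = 0.0526) and -2.71 (SE 0.54, adjusted p = 0.0503), and the glucose-6-phosphate transporter Slc37a4 by -0.41 (SE 0.12, adjusted p = 0.122).

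In let-7 KO kidneys 2 of the 15 were lower and 1 higher, beside 2.73% of all genes past the threshold. Slc2a2 was at 121, 75.1 and 112 CPM in let-7 WT and at 61.7, 71.9 and 42.8 CPM in let-7 KO kidneys (-0.82, SE 0.25, adjusted p = 0.362). Slc5a2 was lower, with a difference of -0.998 (SE 0.27, adjusted p = 0.362). G6pc2, a glucose-6-phosphatase homologue best known from pancreatic islets, was the gene that was higher, at 9.46, 15.6 and 11.4 CPM in let-7 KO against 4.67, 5.46 and 4.17 CPM in let-7 WT kidneys (1.33, SE 0.37, adjusted p = 0.362).

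No glycolytic gene rose or fell in LIN28B Wt1 kidneys. Of the 20, 12 had a positive and 8 a negative log2 difference, and 1 passed the study's threshold. Pkm (chr9:59656368-59679375, plus strand), the pyruvate kinase of most tissues, was at 833, 875 and 935 CPM in control and at 1208, 1182 and 1074 CPM in LIN28B Wt1 kidneys. The groups did not overlap, and the difference was 0.39 (SE 0.11, adjusted p = 0.107). With litter as a block it missed the threshold (adjusted p = 0.175).

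Next in order stood Pgam1, phosphoglycerate mutase, at 475, 473 and 459 CPM in control and 603, 602 and 574 CPM in LIN28B Wt1 kidneys (0.34, SE 0.11, adjusted p = 0.139). Ldha, the muscle-type lactate dehydrogenase subunit, was at 989, 965 and 998 CPM against 1349, 1417 and 1061 CPM (0.38, SE 0.13, adjusted p = 0.157). The lactate exporter Slc16a3 was at 5.37 to 9.57 CPM against 11.3 to 13.6 CPM (0.79, SE 0.30, adjusted p = 0.208). In these 3 genes the groups did not overlap.

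Of the other entry and upper-path genes named here, the liver-type phosphofructokinase Pfkl (0.25, SE 0.12) and the platelet-type Pfkp (-0.32, SE 0.16) did not overlap between the groups, and neither passed the threshold. The groups overlapped for the next 7 genes. The glucose transporter Slc2a1 differed by 0.26 (SE 0.17), the isomerase Gpi1 by 0.28 (SE 0.14), the triose isomerase Tpi1 by 0.23 (SE 0.15) and the phosphoglycerate kinase Pgk1 by 0.24 (SE 0.12). Hexokinase Hk1 differed by -0.33 (SE 0.17) and aldolase Aldoa by -0.08 (SE 0.11). Hk2 was at 4.36 to 6.79 CPM in control and 4.86 to 11.7 CPM in LIN28B Wt1 kidneys, and its difference of 0.47 (SE 0.42) became -0.01 without LIN28B Wt1 replicate 3. Pdk1, the kinase that holds back pyruvate dehydrogenase, was at 52.3 to 56.4 CPM against 30.8 to 52.2 CPM, narrowly without overlap (-0.47, SE 0.22, adjusted p = 0.292).

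In let-7 KO kidneys no glycolytic gene passed the study's threshold in edgeR, and 13 of 20 differences were positive. Ldha was at 1194, 1024 and 947 CPM in let-7 WT and at 1377, 1406 and 1362 CPM in let-7 KO kidneys, without overlap (0.37, SE 0.16, adjusted p = 0.428). Pkm was at 906, 927 and 783 CPM against 1076, 1100 and 1043 CPM, also without overlap (0.28, SE 0.15, adjusted p = 0.54). Tpi1 (0.47, SE 0.18, adjusted p = 0.394) and Ldhb (0.44, SE 0.19, adjusted p = 0.446) both overlapped with let-7 WT kidneys. Without let-7 KO replicate 1, 5 of the 36 members passed, G6pc, Pck1, Cs, Ldhb and Tpi1, against 8.12% of all genes. The let-7 KO kidneys left in that fit had slopes with transcript length of -0.116 and -0.146. With replicate 1 kept and a transcript-length covariate, Cs (-0.45), Ldhb (0.16) and Tpi1 (0.35) missed the threshold, while G6pc and Pck1 passed.

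Aldoc, the brain-type aldolase and besides Hk2 the glycolytic gene with a let-7 seed match, pointed in opposite directions. It was at 10.8, 13.6 and 12.8 CPM in control and 10.5, 9.50 and 4.67 CPM in LIN28B Wt1 kidneys, and at 10.2, 12.5 and 10.7 CPM in let-7 WT and 14.8, 14.4 and 13.3 CPM in let-7 KO kidneys. Neither pair of groups overlapped. The log2 differences were -0.59 (SE 0.34) and 0.33 (SE 0.29), and the test of their difference gave -0.94 (SE 0.43, adjusted p = 0.789), which misses the study's threshold.

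**Figure D3:**
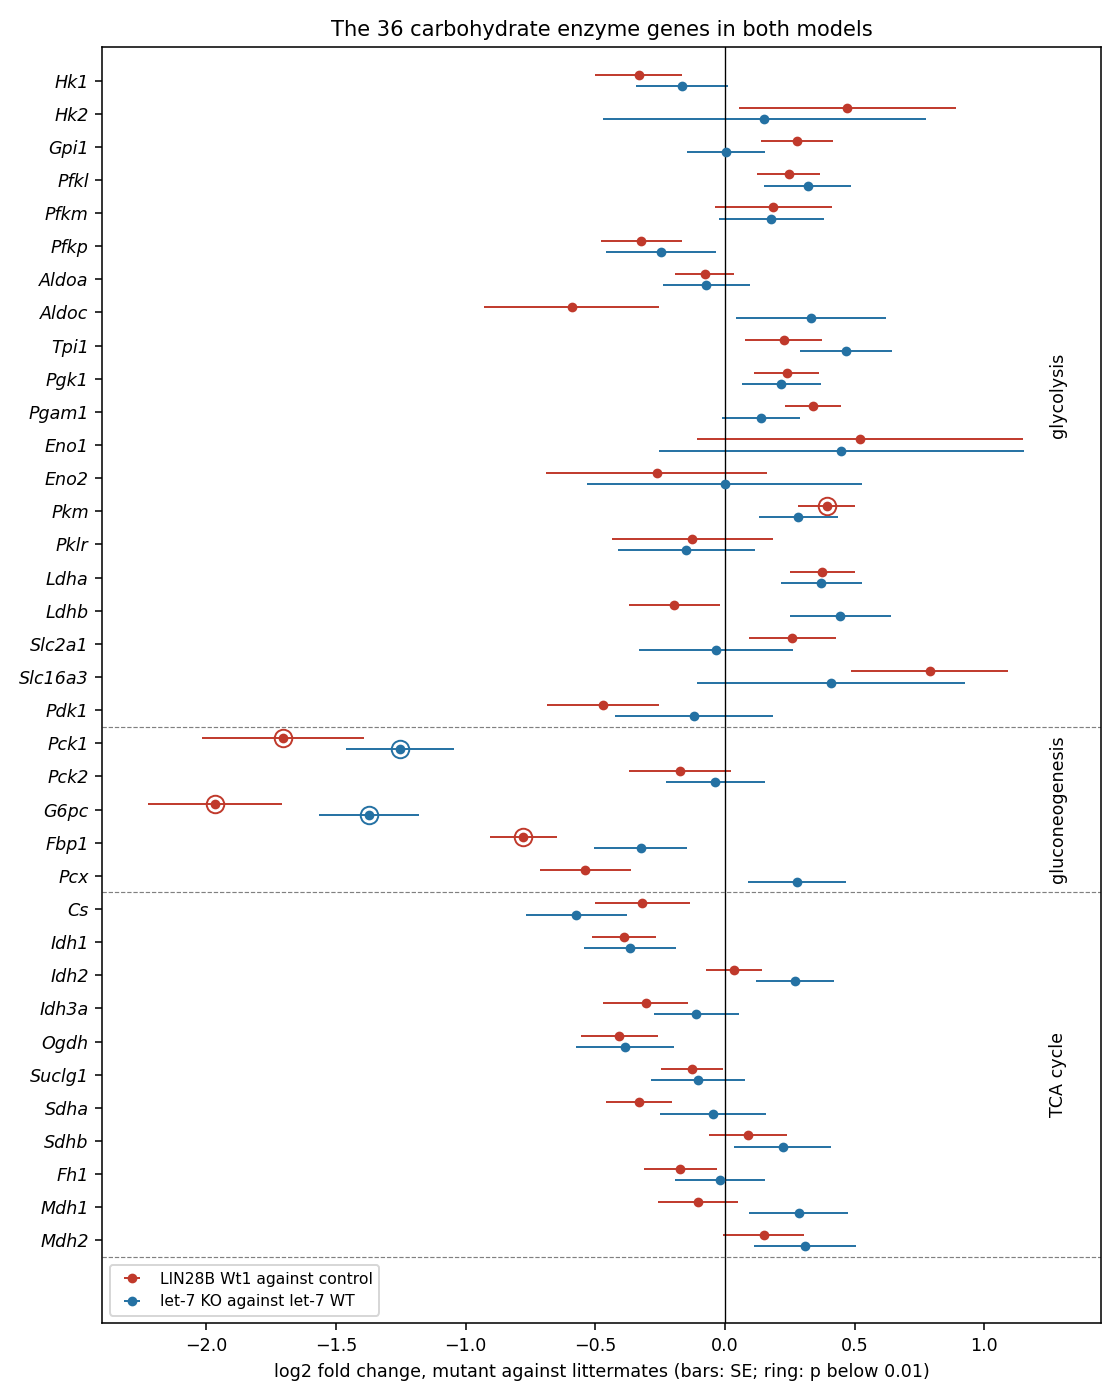
Log2 fold change (horizontal axis, bars SE) of the 36 members in LIN28B Wt1 against control and let-7 KO against let-7 WT kidneys, ordered by pathway, with a ring around genes with p below 0.01. The rings lie on G6pc and Pck1 in both models and on Fbp1 and Pkm in LIN28B Wt1.

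Groups that did not overlap were also counted by pathway. In LIN28B Wt1 against control kidneys 15 of 36 members did not overlap, against 23.8% of all genes: 5 glycolytic genes higher and 3 lower, 4 gluconeogenic genes lower and 3 TCA cycle genes lower. In let-7 KO against let-7 WT kidneys 10 of 36 did not overlap, against 16.7% of all genes: 6 glycolytic genes higher, 2 gluconeogenic genes lower, and 1 TCA cycle gene each way.

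Isozyme choice was read within each kidney as a log2 ratio of 2 counts, which needs no library scaling. Of 20 ratios (10 pairs in both models), 9 did not overlap between mutant and littermate kidneys, 6 of them in LIN28B Wt1 kidneys and the other 3 in let-7 KO kidneys. The share over other gene pairs was not computed, so nothing is read from this count. Every non-overlapping ratio had an exact permutation p of 0.1 (two-sided, the smallest possible) and 0.222 after Benjamini-Hochberg adjustment over the 20. The ratio of Pck1 to Pck2 was 0.81, 2.11 and 1.88 in LIN28B Wt1 and 2.53, 2.97 and 3.62 in control kidneys, and 2.20, 2.53 and 2.33 in let-7 KO and 3.90, 3.25 and 3.55 in let-7 WT kidneys. The cytosolic form was thus lower relative to the mitochondrial form in every mutant kidney, by 1.44 and 1.21 on average.

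The ratio of cytosolic Idh1 to mitochondrial Idh2 was also lower in both models. It was -1.84, -1.54 and -1.35 in LIN28B Wt1 against -1.13, -1.19 and -1.11 in control kidneys, and -0.48, -0.87 and -1.14 in let-7 KO against -0.24, -0.28 and -0.04 in let-7 WT kidneys. The mean differences were -0.43 and -0.64. The ratio of Mdh1 to Mdh2 was lower in every LIN28B Wt1 kidney (0.68, 0.59 and 0.63 against 0.91, 0.85 and 0.89) and overlapped in let-7 KO. The ratio of Ldha to Ldhb was higher in every LIN28B Wt1 kidney, by 0.59 on average, and overlapped in let-7 KO, where the mean difference was -0.04. The remaining non-overlapping ratios were Hk1 to Hk2 (-0.72) and Aldoa to Aldoc (0.58) in LIN28B Wt1 and Pfkp to Pfkm (-0.42) in let-7 KO kidneys.

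No TCA cycle gene passed the study's threshold in either model. In LIN28B Wt1 kidneys 8 of 11 differences were negative and 3 positive. Idh1, which makes NADPH in the cytosol, was at 359, 358 and 368 CPM in control and 247, 278 and 302 CPM in LIN28B Wt1 kidneys (-0.39, SE 0.12, adjusted p = 0.146). Ogdh, of the oxoglutarate dehydrogenase complex, was at 326, 322 and 269 CPM against 213, 209.6 and 267 CPM (-0.41, SE 0.15, adjusted p = 0.191), and Sdha, the flavoprotein of succinate dehydrogenase, was at 541 to 659 CPM against 433 to 499.7 CPM (-0.33, SE 0.13, adjusted p = 0.211). The groups did not overlap in these 3 genes, narrowly so for Ogdh.

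Other TCA cycle genes overlapped. The citrate synthase gene Cs differed by -0.32 (SE 0.18), Idh3a by -0.31 (SE 0.16), Fh1, the fumarase, by -0.17 (SE 0.14), Suclg1 by -0.13 (SE 0.12), Mdh1 by -0.10 (SE 0.15), Idh2 by 0.04 (SE 0.11), Sdhb, the iron-sulfur subunit, by 0.09 (SE 0.15) and Mdh2 by 0.15 (SE 0.16). In let-7 KO kidneys Cs had the lowest p, at 283, 318 and 307 CPM in let-7 WT and 244, 214 and 158 CPM in let-7 KO kidneys, without overlap (-0.57, SE 0.19, adjusted p = 0.377). Idh1 was at 697, 598 and 734 CPM against 619, 514 and 458 CPM (-0.36, SE 0.18, adjusted p = 0.488) and Ogdh differed by -0.39 (SE 0.19, adjusted p = 0.488). Idh2, which carries a let-7 seed match, was higher in every let-7 KO kidney, at 821, 727 and 754 against 862, 940.2 and 1006 CPM (0.27, SE 0.15, adjusted p = 0.549). Of the other members with a match, Aldoc (0.33, SE 0.29) was also higher without overlap. Hk2 (0.15, SE 0.62), Pcx (0.28, SE 0.19) and Pck2 (-0.04, SE 0.19) overlapped with let-7 WT kidneys. Whether let-7 acts on any of these genes was not tested.

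The wider lists around the pathways gave few further calls. Of 23 other glycolysis and fructose genes tested in LIN28B Wt1 kidneys, 1 was higher and 4 lower at the study's threshold. Eno3, the muscle enolase, was at 8.39, 6.10 and 12.9 CPM against 51.2, 33.8 and 31.2 CPM, and rose by 2.08 (SE 0.32, adjusted p = 0.0182). Galm, the galactose mutarotase, and the monocarboxylate transporter Slc16a7 differed by -0.76 (adjusted p = 0.0579) and -1.15 (adjusted p = 0.0675). None of the 23 passed in let-7 KO kidneys, where Eno3 differed by 0.99 (SE 0.32, adjusted p = 0.369).

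Of 13 genes of pyruvate dehydrogenase and pyruvate import, Dld (-0.43, adjusted p = 0.113) and Mpc1 (-0.47, adjusted p = 0.122) were lower in LIN28B Wt1 kidneys and none passed in let-7 KO. Of 20 other TCA cycle genes, Me3, a mitochondrial malic enzyme, was lower in LIN28B Wt1 kidneys (-0.94, SE 0.20, adjusted p = 0.0604) and none passed in let-7 KO. Of 19 hypoxia-inducible factor targets outside the members, 1 was higher and 3 lower in LIN28B Wt1 kidneys, Ankrd37 (0.75, adjusted p = 0.124) against Ndrg1, which fell by 1.19 (SE 0.17, adjusted p = 0.0151), Bnip3 (-0.50, adjusted p = 0.116) and Bhlhe40 (-0.65, adjusted p = 0.129). In let-7 KO kidneys Ndrg1 (-0.58, adjusted p = 0.362) and Bhlhe40 (-0.83, adjusted p = 0.358) were the targets that passed the study's threshold, both lower.

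The number of members that passed in LIN28B Wt1 kidneys depended on 1 kidney. Without LIN28B Wt1 replicate 3, 13 of 36 members passed the study's threshold, against 15.4% of all genes, and 12 had an adjusted p below 0.05, against 12.8%. The LIN28B Wt1 kidneys left in that fit share litter 1, so its p-values do not cover the spread between LIN28B Wt1 litters. Their slopes with transcript length were both -0.048, against -0.0023 to 0.112 in control kidneys. The 13 comprised G6pc, Pck1 and Fbp1, now at -2.28, -1.77 and -0.70, 5 glycolytic genes and 5 TCA cycle genes. Ldha (0.48, adjusted p = 0.0057), Pkm (0.43, adjusted p = 0.012), Tpi1 (0.36, adjusted p = 0.0306) and Pgam1 (0.35, adjusted p = 0.0258) were higher and Pdk1 (-0.74, adjusted p = 0.0181) was lower. In the TCA cycle Ogdh (-0.54), Cs (-0.53), Idh1 (-0.47) and Sdha (-0.39) were lower with adjusted p between 0.0157 and 0.0452, and Mdh2 was higher (0.30, adjusted p = 0.0604). With a transcript-length covariate in the fit of all kidneys, 11 members passed, against 10.1% of all genes, among them Ldhb (-0.44, adjusted p = 0.016) and Mdh1 (-0.30, adjusted p = 0.0326), which were at -0.19 and -0.10 with the same kidneys and no covariate. Of the 13, Tpi1 (0.06), Pdk1 (-0.31), Cs (-0.13), Sdha (-0.24) and Mdh2 (-0.04) missed the threshold with the covariate. The rest of the 13 passed with it.

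**Figure D4:**
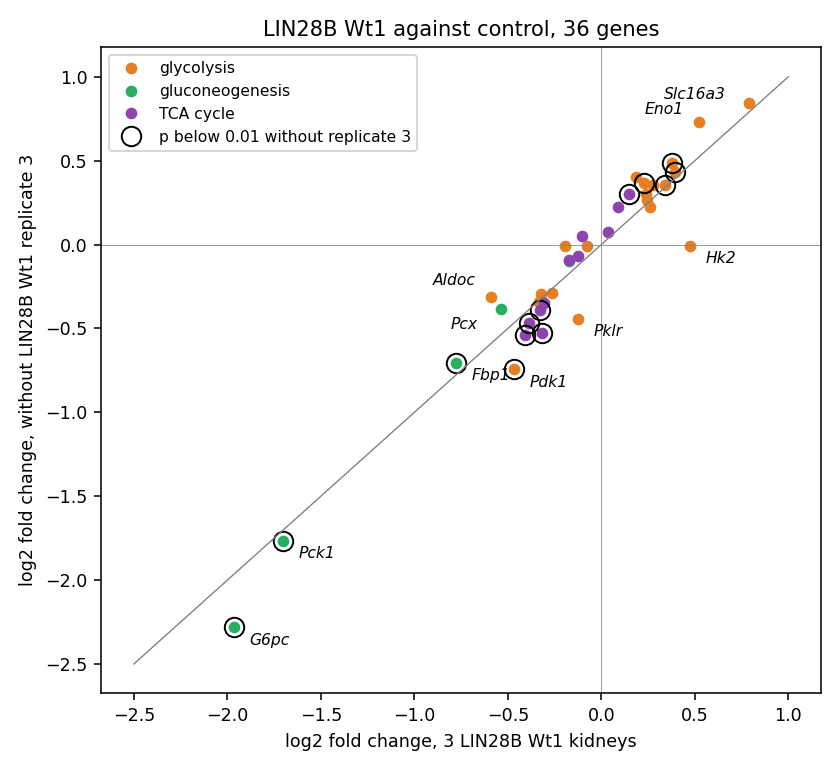
Log2 fold change of the 36 members in LIN28B Wt1 against control kidneys with all 3 LIN28B Wt1 kidneys (horizontal axis) and without replicate 3 (vertical axis), coloured by pathway, with the line of equal values and rings at p below 0.01 in the second fit. G6pc, Pck1 and Fbp1 lie at the lower left in both fits, and Hk2 leaves the line, at 0.47 with and -0.01 without that kidney. The LIN28B Wt1 kidneys in the second fit share a litter.

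Levels in the 2 control groups differed for several members, so values should be read within a model. In let-7 WT against control kidneys 6 of 36 members passed the study's threshold, all higher, against 3.32% of all genes (1.95% higher), and 2 had an adjusted p below 0.05, against 0.627%. Between these groups 9 of 36 members did not overlap, all higher in let-7 WT, against 19.5% of all genes. Idh1 rose by 0.90 (SE 0.14, adjusted p = 0.0076), from 359, 358 and 368 CPM to 697, 598 and 734 CPM. Pklr, the pyruvate kinase of liver, red cells and proximal tubule, rose by 1.51 (SE 0.29, adjusted p = 0.0304), from 17.4, 11.1 and 16.1 CPM to 34.3, 56.1 and 36.9 CPM. The other 4 were Pfkp (0.68), Fbp1 (0.60), Fh1 (0.51) and Gpi1 (0.45), with adjusted p between 0.132 and 0.214. Without control replicate 1, control replicate 2 or let-7 WT replicate 1 the number passing was 2, 3 and 3, against 2.14%, 2.11% and 2.07% of all genes, and with a transcript-length covariate 10 passed, against 5.83% of all genes. Of 16 proximal tubule markers, 7 were higher in let-7 WT kidneys and none lower. Other markers were lower in let-7 WT kidneys, at the same threshold: 4 of 6 fat markers (sums of 253 to 415 against 424 to 563 CPM), 3 of 11 nephron progenitor markers (190 to 269 against 285 to 318 CPM) and 2 of 8 liver markers (30.4 to 95.1 against 171 to 233 CPM). The part of these tissues and of tubule content in the differences was not tested.

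Enolase counts need care. Eno1 encodes the enolase of most tissues, yet it was at 1.31 to 3.57 CPM in all 12 kidneys, while Pgam1, the preceding enzyme, was at 459 to 691 CPM. Eno1b, a near-identical copy counted under its own symbol, was at 9.37, 8.15 and 10.9 CPM in control, 17.2, 14.2 and 10.4 in LIN28B Wt1, 500.4, 306 and 335 in let-7 WT and 467, 452 and 446 in let-7 KO kidneys. The kidneys of mixed strain were thus all above those of C57BL/6, with a log2 difference of 5.32 (SE 0.25, adjusted p = 4.8e-08) between the control groups. How reads shared by the copies were counted is not given in the sources used here, so Eno1 is reported as uncertain. The sum of both copies, an alternative added after seeing the data, was 10.1 to 12.3 CPM in control and 11.9 to 19.8 CPM in LIN28B Wt1 kidneys, and 307 to 503 CPM in let-7 WT and 449.7 to 469 CPM in let-7 KO kidneys, so mutants overlapped with their littermates in both models. Eno2, the neuronal enolase, was at 3.51 to 11.2 CPM in all kidneys and differed by -0.26 (SE 0.43) and 0.00 (SE 0.53) in the 2 models.

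**Figure D5:**
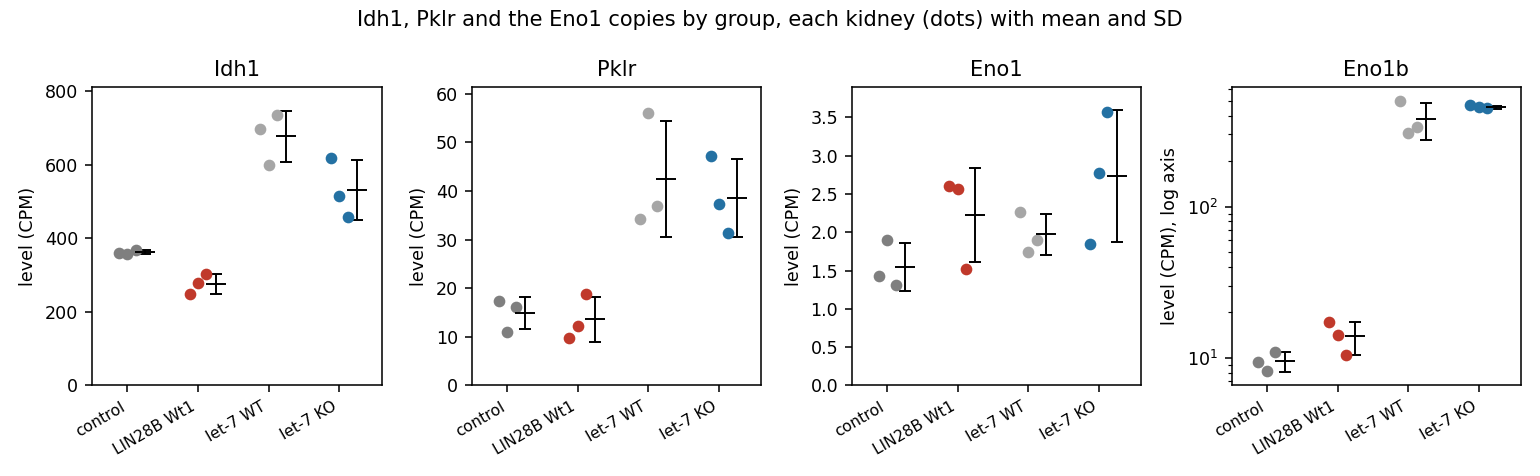
Level in CPM of Idh1, Pklr, Eno1 and its copy Eno1b (the last on a log axis) in each kidney (dots) with the group mean and SD (bars, n = 3). Idh1, Pklr and Eno1b are higher in every kidney of mixed strain than in every C57BL/6 kidney, while Eno1 stays between 1.31 and 3.57 CPM.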

How the data were processed

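The authors sequenced SMARTer libraries of whole-kidney RNA and deposited 1 table of raw read counts per gene symbol for each kidney, named here by group and replicate. The submitters' processing notes name cutadapt, TopHat2 2.0.9, Bowtie2, SAMtools 0.1.19, HTSeq and mm10. The annotation, counting mode and strand setting are not given in the sources used here. Counts were tested as deposited with edgeR 4.0.16 (R 4.3.3) after TMM scaling and a filter on low counts (minimum 10 in a sample, 15 in total), each model alone against its littermates, and in 1 fit of 12 kidneys for the difference between models and between control groups. All 36 members passed the filter in every fit, and the fit was tested on simulated data. Exact permutation tests were two-sided. Replicates are separate kidneys of 2 litters per group.

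The members and gene lists were chosen with earlier results of these data known. Genes outside the members are named where their p was below 0.01, at most 4 per list and comparison, and exceptions were chosen after their values were seen: Ucp1, the myosins, albumin, Eno1b, Slc34a1, Lrp2, and Eno3 in let-7 KO. The lists cover other genes of the pathways, hypoxia-inducible factor targets, regulators, and markers of kidney segments and other tissues. Tigar, Gk, Sdhaf4, Epb42 and Adgre1 were listed but not matched by symbol. Some listed genes are not reported here. Transcript lengths and 3′ UTRs came from GENCODE on GRCm38, the build also named mm10, and a length was found for 98.4% of symbols. Litter numbers were taken to mark litters shared by mutants and their littermates within a model, which is an assumption that the litter block rests on. The mean correlation of deviations from group means in the LIN28B Wt1 model was -0.0858 within a litter (5 pairs) and 0.1065 across litters (4 pairs). In the let-7 model it was -0.0199 and 0.0248. Alternatives were DESeq2 1.42.0, other scalings, no filter, litter as a block, a transcript-length covariate, 1 fit of all kidneys, and leaving out each kidney. The floor of 3 counts covers counting error only. Ratios to proximal tubule markers, the enolase sum and the full calls without LIN28B Wt1 replicate 3 were chosen after seeing the data.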

Additional observations from a re-analysis of the deposited data

Results flagged for a closer look

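The effect on Aldoc pointed in opposite directions in the 2 models. Every LIN28B Wt1 kidney was below every control kidney and every let-7 KO kidney was above every let-7 WT kidney, and the log2 difference between the effects was -0.94 (SE 0.43, adjusted p = 0.789 in edgeR). Pcx stood out because the test of the difference between the effects passed the study's threshold, at -0.84 (SE 0.27, adjusted p = 0.595), with LIN28B Wt1 kidneys below and let-7 KO kidneys on average above their littermates. Without 1 kidney the Pcx difference ranged from -0.99 to -0.68, and it missed the threshold without control replicate 2 or 3, LIN28B Wt1 replicate 1 or 3, let-7 WT replicate 2 or 3, or let-7 KO replicate 2 or 3. The Aldoc difference was -0.65 without LIN28B Wt1 replicate 3. Neither difference passed after adjustment over all genes.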

How the results depend on the processing

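No gene past the threshold in a comparison changed direction there under any alternative run. Of members that did not pass, some changed sign. In LIN28B Wt1 kidneys the transcript-length covariate gave log2 differences of the other sign for Pfkm -0.069, Pklr 0.033, Sdhb -0.083 and Mdh2 -0.043. Without 1 kidney the sign also changed in LIN28B Wt1 for these genes, whose differences ranged over Hk2 -0.0074 to 0.72, Eno2 -0.55 to 0.039, Pklr -0.44 to 0.068, Idh2 -0.020 to 0.074 and Mdh1 -0.20 to 0.052. The covariate changed the sign in let-7 KO kidneys for Gpi1 -0.050, Eno2 0.49, Slc2a1 0.47, Pdk1 0.43, Idh3a 0.016, Sdha 0.23, Sdhb -0.010 and Mdh1 -0.0087. The Eno2 difference changed sign to 0.030 in DESeq2, 0.042 with upper-quartile scaling, 0.029 with DESeq2 size factors, 0.060 with litter as a replicate block and 0.014 in 1 fit of all 12 kidneys. The Fh1 difference changed sign to 0.0065 in DESeq2, 0.016 with upper-quartile scaling, 0.0056 with DESeq2 size factors and 2.2e-04 in 1 fit of all 12 kidneys. Without 1 kidney the sign also changed in let-7 KO for these genes, whose differences ranged over Hk2 -0.53 to 0.53, Gpi1 -0.018 to 0.042, Aldoa -0.18 to 0.024, Eno2 -0.39 to 0.56, Pklr -0.34 to 0.11, Slc2a1 -0.38 to 0.22, Slc16a3 -0.36 to 0.69, Pdk1 -0.50 to 0.093, Pck2 -0.11 to 0.012, Suclg1 -0.25 to 0.011, Sdha -0.23 to 0.12 and Fh1 -0.13 to 0.10. With litter as a replicate block 4 members passed the threshold in LIN28B Wt1 (Pcx in place of Pkm), 2 in let-7 KO and 1 in the difference between the effects. The share of all genes passing with this block is not given here, so nothing is read from these counts. The block could not be fitted between the control groups, whose litters differ. DESeq2 gave 8 members in LIN28B Wt1 and gave 4 for let-7 KO, against 10.9% and 5.44% of all genes. The transcript-length covariate gave 11 in LIN28B Wt1, against 10.1% of all genes, and 10 between the control groups, against 5.83%. It gave 2 in the difference, for which the share of all genes is not given here. At an adjusted p below 0.05 in edgeR there were 0 members in let-7 KO and in the difference and 2 between the control groups. The shares of all genes were 0.0194%, 0.00602% and 0.627%. Leaving out 1 kidney at a time gave 3 to 13 members in LIN28B Wt1 (13 without LIN28B Wt1 replicate 3), 2 to 5 in let-7 KO (5 without let-7 KO replicate 1), 0 to 3 in the difference (3 without let-7 KO replicate 1; 0 without control replicate 2 or 3, LIN28B Wt1 replicate 1, let-7 WT replicate 2 or 3, or let-7 KO replicate 2 or 3) and 2 to 8 between the control groups (2, 3 and 3 without control replicate 1, control replicate 2 and let-7 WT replicate 1). Of all genes, 15.4% passed in LIN28B Wt1 without LIN28B Wt1 replicate 3. Without let-7 KO replicate 1, 8.12% passed in let-7 KO and 2.71% in the difference. For the other ends of these ranges the share of all genes is not given here, except for the low counts between the control groups, given above. Between 9 and 11 isozyme ratios did not overlap. The causes of these moves were not tested.

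With 3 kidneys a group, exact permutation tests cannot fall below p = 0.1. Kidneys of a group come from 2 litters, so p-values measure the spread between these kidneys. The member with the fewest reads, Eno1, had 69 to 159 counts per kidney.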

Other observations

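Among 28 regulators of these pathways, Myc, which drives glycolytic genes in many cells, passed the study's threshold in both models and in opposite directions. It was at 51.6, 61.2 and 41.8 CPM in control and 71.9, 74.2 and 99.3 CPM in LIN28B Wt1 kidneys (0.67, SE 0.20, edgeR adjusted p = 0.125), and at 62.6, 84.0 and 67.5 CPM in let-7 WT and 54.0, 36.1 and 40.3 CPM in let-7 KO kidneys (-0.73, SE 0.23, adjusted p = 0.366). Neither pair of groups overlapped. The difference between the effects was 1.38 (SE 0.30, adjusted p = 0.314). Ppargc1a, a coactivator of mitochondrial and gluconeogenic genes, was lower in let-7 KO kidneys (-0.59, SE 0.17, adjusted p = 0.362).

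Segment markers outside the proximal tubule moved as well in LIN28B Wt1 kidneys. Of 8 thick limb and distal tubule markers 5 were lower, and their sum was 857 to 941 CPM against 1441 to 2026 CPM in control kidneys. Slc12a3, the sodium chloride cotransporter, fell by 1.95 (adjusted p = 9.4e-04) and Umod, uromodulin, fell by 1.23 (adjusted p = 0.0409). Among nephron progenitor markers Six2 rose by 3.35 (adjusted p = 8.0e-04) and Cited1 by 3.33 (adjusted p = 9.4e-04). At the study's threshold 1 of 11 collecting duct, 0 of 7 podocyte, 2 of 8 stroma, 5 of 8 endothelium, 1 of 3 red cell and 1 of 8 immune markers were lower and none higher, and no liver, adrenal or skeletal muscle marker passed. The collecting duct and red cell calls were the same gene, Slc4a1, and the other 2 red cell markers tested had positive log2 differences. In let-7 KO kidneys 2 of 11 progenitor markers were higher, 1 of 8 thick limb and distal markers was lower, 1 of 11 collecting duct markers was lower and 1 higher, and no podocyte, stroma, endothelium, red cell, immune, muscle, liver, adrenal or fat marker passed.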
